A study of Triticum aestivum with 6 samples.

Results

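This report describes 94 transcript sequences of developing wheat grain that stood higher in the aleurone at 6 days post anthesis (DPA) and higher in the starchy endosperm at 14 DPA. They are 94 of the 221925 sequences measured, or 0.0424%. They were chosen on RPKM, a read count corrected for the length of the sequence and the depth of its library. A member had at least 5 RPKM in 6 DPA aleurone and at least 4 times its level in 6 DPA starchy endosperm. It also had at least 5 RPKM in 14 DPA starchy endosperm and at least 4 times its level in 14 DPA aleurone. Its 14 DPA starchy endosperm level lay within 16-fold of its 6 DPA aleurone level, above or below. The 6 and 14 DPA values that chose the members are given as a description. The 2 libraries of 9 DPA took no part in the choice.

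Aleurone and starchy endosperm are the 2 main tissues of the cereal endosperm. The aleurone is the outer layer, which stays alive in the mature grain and releases enzymes at germination. The starchy endosperm is the inner tissue, which fills with starch and storage proteins. The fate of an endosperm cell depends on its position, and in maize inner daughter cells of aleurone divisions can become starchy endosperm.

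The samples were microdissected aleurone and starchy endosperm of the cultivar Banks of bread wheat (Triticum aestivum) at 6, 9 and 14 DPA, with no treatment named in the labels. Each of the 6 groups was 1 library from pooled seeds, at least 5 seeds from 3 spikes of 3 plants. No value therefore has a replicate error, and no difference between tissues or stages was tested. Aleurone libraries held 27150859, 4549034 and 37911327 reads in order of stage, and starchy endosperm libraries 30581013, 4104682 and 37502901. The identifiers are those of assembled transcripts (beginning with TC) and of single sequences. None (0) of them matched the RefSeq gene table, and the files give them no names or functions. The identity of the tissues could for that reason not be checked against marker genes. In bulk tissue, fewer cells of a type and less RNA per cell cannot be told apart.

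At 6 DPA 7293 sequences met the aleurone side, and at 14 DPA 2846 met the starchy endosperm side. Both were met by 97 sequences, of which 3 lay outside the 16-fold window, 2 with a much lower and 1 with a much higher starchy endosperm level at 14 DPA. The 97 are 1.33% of the 6 DPA aleurone list, where 1.28% of all sequences met the 14 DPA starchy endosperm side, and 3.41% of the 14 DPA starchy endosperm list, where 3.29% of all sequences met the 6 DPA aleurone side. The overlap was therefore near the share over all sequences. That share also counts sequences without reads, 86340 in 6 DPA aleurone and 94039 in 14 DPA starchy endosperm. It is thus not a share over expressed sequences. By comparison, 2108 of the 7293 sequences were again on the aleurone side at 14 DPA. The mirror rule, from starchy endosperm at 6 DPA to aleurone at 14 DPA, chose 374 sequences.

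The thresholds cut through a continuous range. The member nearest to the 6 DPA ratio threshold stood 4.02-fold higher in aleurone, and the nearest sequence that failed on this criterion alone stood 3.96-fold higher. At 14 DPA the nearest member stood 4.08-fold higher in starchy endosperm and the nearest sequence outside 3.97-fold. The lowest member levels were 5.06 RPKM in 6 DPA aleurone and 5.02 RPKM in 14 DPA starchy endosperm, with 4.235 and 4.971 RPKM just outside. Within 25% of the threshold lay 18 members for the 6 DPA ratio and 13 for the 14 DPA ratio. There were 530 sequences that failed on the 6 DPA ratio alone and 902 that failed on the 14 DPA ratio alone.

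In aleurone, the median level of the 94 members was 23.4 RPKM at 6 DPA (range 5.06 to 511), 20.3 RPKM at 9 DPA (range 0.318 to 1493) and 1.72 RPKM at 14 DPA (range 0.026 to 12.8). In starchy endosperm, the median was 1.75 RPKM at 6 DPA (range 0 to 54.1), 3.63 RPKM at 9 DPA (range 0 to 148) and 14.4 RPKM at 14 DPA (range 5.02 to 406). The aleurone medians of 6 and 9 DPA were thus close and that of 14 DPA was low, while the starchy endosperm medians were higher at each later stage. No reads were counted for 2 members in 6 DPA starchy endosperm and for 9 members in 9 DPA starchy endosperm, whereas 14 DPA aleurone had at least 1 read for every member. At these depths a count of 0 allows up to 3 reads, which is 0.0981 RPM (reads scaled to the library total alone) in 6 DPA starchy endosperm and 0.731 RPM in 9 DPA starchy endosperm.

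**Figure D1:**
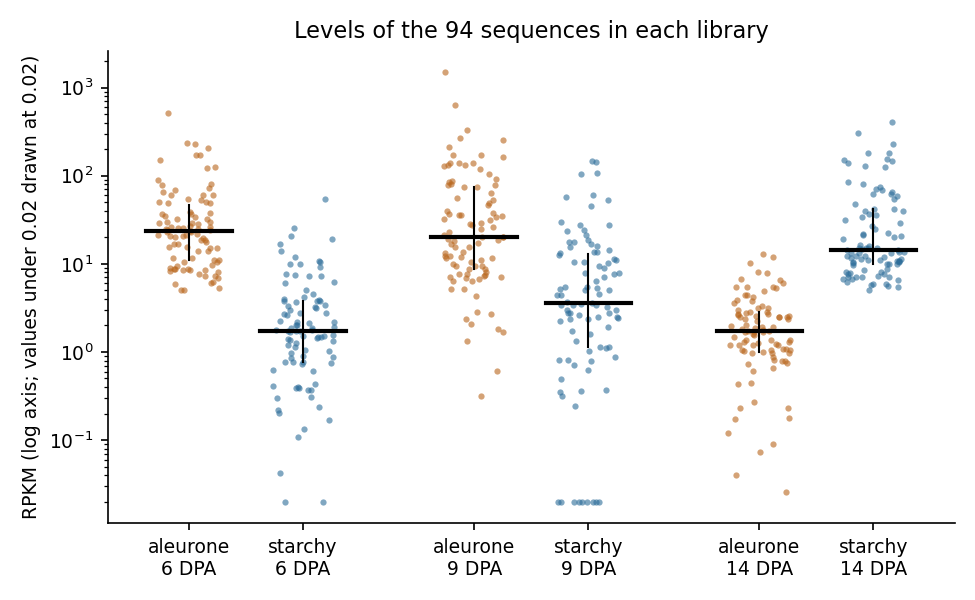
Level of each of the 94 sequences (points, RPKM on a log axis) in the 6 libraries, aleurone left of starchy endosperm at each stage, with the median (horizontal bar) and quartiles (vertical line). The aleurone medians are 23.4, 20.3 and 1.72 RPKM at 6, 9 and 14 DPA and the starchy endosperm medians 1.75, 3.63 and 14.4 RPKM. The 6 and 14 DPA separations were set by the rule.

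Together the members made up a small part of each library. In order of stage they took 0.388%, 0.681% and 0.0204% of the aleurone reads, and 0.0354%, 0.118% and 0.364% of the starchy endosperm reads. The largest share of the 6 was therefore that of 9 DPA aleurone, a library the rule did not use. A few members weigh heavily in it, as the 5 most abundant held 56.5% of the members' reads there, 42.5% in 6 DPA aleurone and 37.1% in 14 DPA starchy endosperm.

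At 9 DPA, between the stages of the rule, most members still stood on the aleurone side. Of the 94, 89 had at least 10 reads in the higher 9 DPA library. Among these, aleurone was the higher tissue by 4-fold or more in 53 (59.6%) and starchy endosperm in 1 (1.12%). Over all 55656 sequences with as many reads the shares were 18.7% and 14.2%. The other 35 members were less than 4-fold apart. The median log2 ratio of aleurone to starchy endosperm at 9 DPA was 2.59 over the members (quartiles 0.98 and 3.99), against 0.19 over all sequences. Counts under 3 were set at 3 reads for these ratios.

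Counting error is a limit at 9 DPA, where the libraries were shallow. The exact 95% interval of the aleurone to starchy endosperm ratio lay above equal levels for 67 of the 89 members, below it for 10, and included it for 12, where it lay above for 36.2% and below for 29.7% of all sequences. These intervals cover counting error only and say nothing of the difference between plants. Of the members, 73 had a 9 DPA ratio above 1 and 16 a ratio below 1, against 53.7% and 46.3% of all sequences. The members' log2 ratios ran from -3.66 to 6.11.

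**Figure D2:**
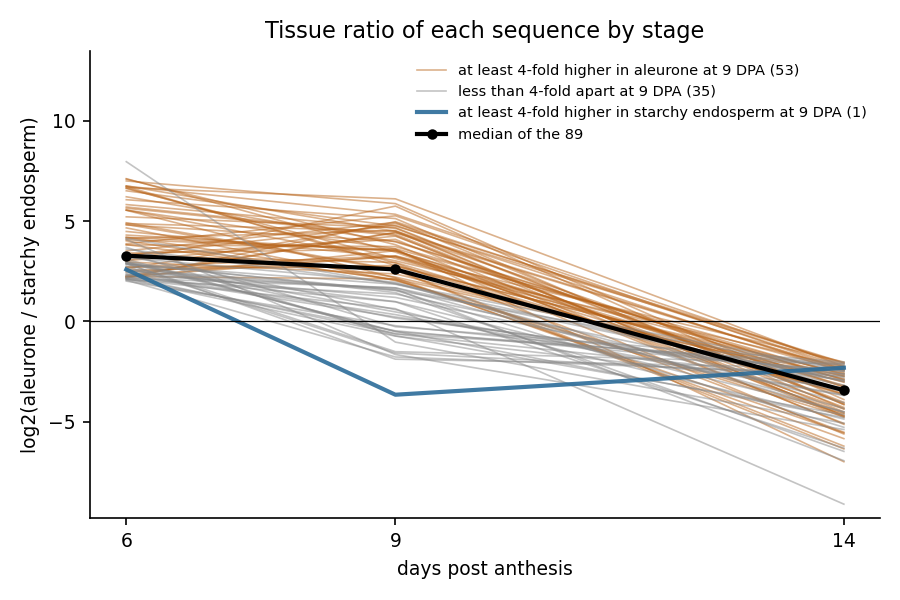
log2 ratio of aleurone to starchy endosperm (y axis) at 6, 9 and 14 DPA (x axis) for the 89 sequences with at least 10 reads in a 9 DPA library, coloured by their ratio at 9 DPA, with their median in black. At 9 DPA 53 lie at least 4-fold on the aleurone side, 35 between and 1 at least 4-fold on the starchy endosperm side.

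Sequences that kept a tissue are set beside the members at 9 DPA for scale. The same RPKM and ratio limits were used, with the 16-fold window set between the 6 and 14 DPA levels of the higher tissue. These limits chose 2036 sequences that were higher in aleurone at both 6 and 14 DPA, where 2108 met them without the window. They chose 911 that were higher in starchy endosperm at both. At 9 DPA, aleurone was 4-fold or more the higher tissue in 59.6% of the members (exact 95% interval over sequences 48.6 to 69.8), against 77.6% of 1903 sequences of the aleurone set (75.7 to 79.5) and 0.613% of 816 of the starchy endosperm set. The median log2 ratio was 2.59 for the members, 3.17 for the aleurone set and -4.18 for the starchy endosperm set. The members' median thus lay below that of the aleurone set and above that of the whole series. Sequences of a gene are not independent and the intervals do not hold the spread between plants, so the gap between 59.6% and 77.6% was not tested.

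The mirror set can be read from the other side. Of the members, 59.6% were at least 4-fold on the side of their 6 DPA tissue at 9 DPA and 1.12% on that of their 14 DPA tissue. Of the 273 mirror sequences with enough reads, 33.3% had 4-fold or more in starchy endosperm, their 6 DPA tissue, and 3.30% in aleurone, their 14 DPA tissue. The median log2 ratio of aleurone to starchy endosperm was 2.59 for the members and -1.35 for the mirror set. In each set more sequences stood on the side of the 6 DPA tissue than on that of the 14 DPA tissue. No test of the difference between the sets was made.

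**Figure D3:**
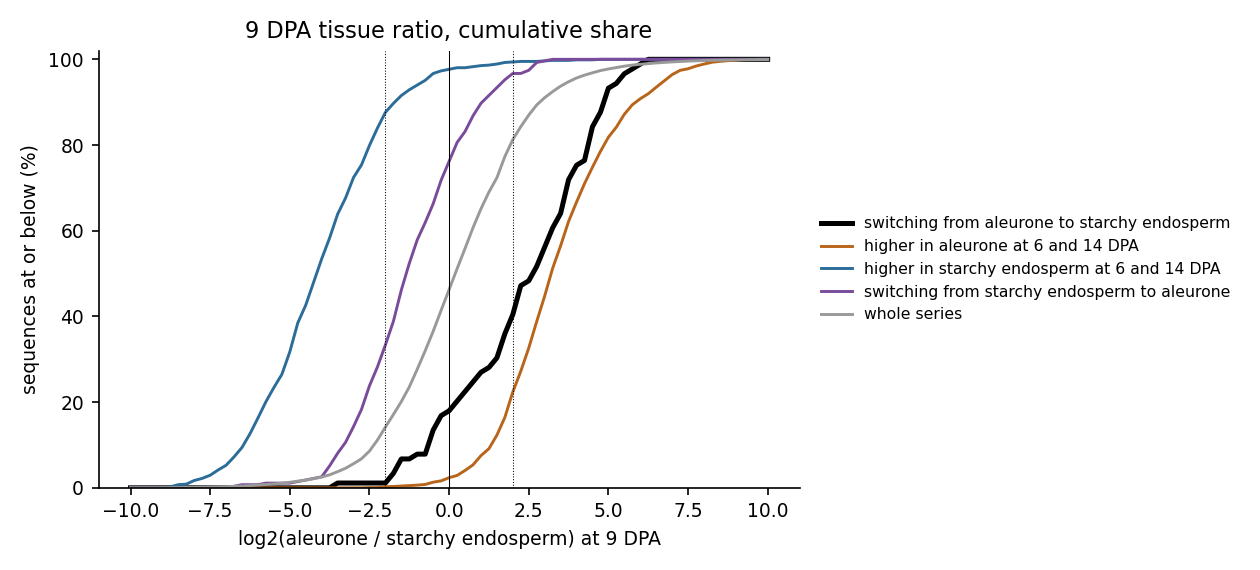
Cumulative share of sequences (y axis, percent) by log2 ratio of aleurone to starchy endosperm at 9 DPA (x axis), for the 89 switching sequences and the sequences of the comparison sets with at least 10 reads in a 9 DPA library. Dotted lines mark 4-fold. The switching set has its median at 2.59, between the whole series at 0.19 and the set higher in aleurone at both stages at 3.17.

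The tissues were then read separately. For each tissue the 9 DPA level was called near its 6 or its 14 DPA level, whichever was closer on the log scale. Aleurone was nearer its 6 DPA level in 81 of 89 members (91.01%), against 65.9% of all sequences with as many reads. Starchy endosperm was nearer its 6 DPA level in 45 of 89 (50.6%), against 57.2%. The 6 and 14 DPA levels on which these calls rest were used by the rule. Taken jointly, 41 members (46.1%) had both tissues near their 6 DPA levels, against 39.4% of all sequences. Another 40 members (44.9%), against 26.5%, had aleurone near its 6 DPA and starchy endosperm near its 14 DPA level, both of which are high in the members. In 4 members (4.49%), against 16.3%, both tissues were near their 14 DPA levels. In the other 4 (4.49%), against 17.8%, aleurone was near its 14 DPA and starchy endosperm near its 6 DPA level, both low in the members. These calls set counts under 3 at 3 reads, or 0.731 RPM in starchy endosperm at 9 DPA and 0.0981 RPM at 6 DPA. A low 9 DPA count can thus be called nearer the 14 DPA level. Among the 40 members above, BQ238280, TC447933, CA630632 and CA638633 had 0 reads in 9 DPA starchy endosperm, and BQ241356 had 1. With a floor of 1 read, that class held 35 members, and 46 had both tissues near their 6 DPA levels.

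The 2 large classes are split on 9 DPA starchy endosperm, so their difference there is set by the split. Members with both tissues near their 6 DPA levels had medians of 24.5 RPKM in aleurone and 2.35 RPKM in starchy endosperm at 9 DPA. Members with both tissues high had medians of 34.6 and 12.3 RPKM. Their 6 DPA medians were 23.1 and 2.05 RPKM in the first class and 23.9 and 1.73 RPKM in the other, aleurone before starchy endosperm. Their 14 DPA medians were 1.70 and 13.3 RPKM in the first class and 1.36 and 23.3 RPKM in the other. In the class called both tissues high, 21 of 40 members had aleurone 4-fold or more above starchy endosperm at 9 DPA, and 32 of 41 did in the first class. Those 21 include BQ238280, TC447933, CA630632 and CA638633, with 0 reads in 9 DPA starchy endosperm, and BQ241356, with 1. In these the starchy endosperm is called high only through the 3-read floor. The split between the classes depends on scaling: with TMM or DESeq2 size factors 53 members had both tissues near their 6 DPA levels and 28 had both high.

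**Figure D4:**
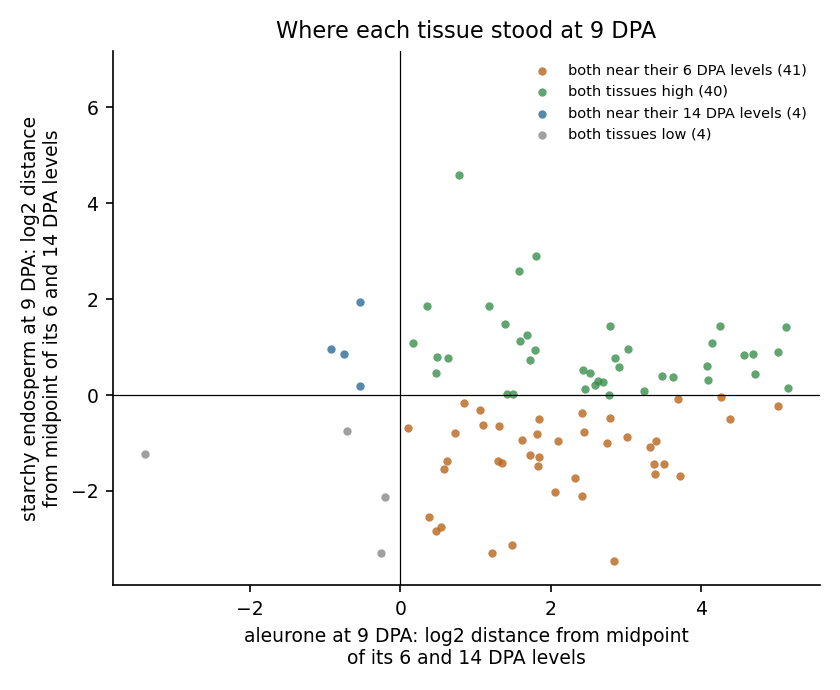
Position of the 9 DPA level of each of the 89 sequences relative to the log2 midpoint of its own 6 and 14 DPA levels, for aleurone (x axis) and starchy endosperm (y axis). Points right of 0 have aleurone nearer its 6 DPA level (81 sequences), and points above 0 have starchy endosperm nearer its 14 DPA level (44 sequences).

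Stage by stage, each interval shares at least 1 library with the rule, so these counts are a description. They took sequences with at least 2.44 RPM in the higher library, and values under 0.731 RPM were set at that level. In aleurone at 9 against 6 DPA, 8 of 94 members were at least 4-fold higher at 9 DPA and 7 at least 4-fold lower, where 5.22% and 5.98% of all sequences were. The median log2 change was -0.05, and 46 of the 94 had a higher value at 9 than at 6 DPA. In aleurone at 14 against 9 DPA, 74 of 86 members were at least 4-fold lower and 1 at least 4-fold higher, against 16.1% and 14.3% of all sequences, with a median log2 change of -3.53. The rule keeps 14 DPA aleurone low, so members pass the read minimum more readily through a high 9 DPA level. These values therefore hold for the 86 only, and for most of the 86 the lower aleurone level appeared between 9 and 14 DPA. Over all 94 members the aleurone medians were 20.3 RPKM at 9 DPA and 1.72 RPKM at 14 DPA.

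In starchy endosperm both intervals held differences. At 9 against 6 DPA, 28 of 60 members were at least 4-fold higher and 4 at least 4-fold lower, against 11.2% and 13.1% of all sequences. Their median log2 change was 1.81. The rule keeps 6 DPA starchy endosperm low, so members pass the read minimum more readily through a high 9 DPA level. These values therefore hold for the 60 only. Of all 94 members, 63 had at least their 6 DPA RPKM at 9 DPA and 31 had less, with medians of 1.75 RPKM at 6 DPA and 3.63 RPKM at 9 DPA. At 14 against 9 DPA, 49 of 92 were at least 4-fold higher and 1 at least 4-fold lower, against 5.99% and 19.2% of all sequences, with a median of 2.28 where the median of all sequences was -0.89. With TMM, every log2 ratio of 14 to 9 DPA in starchy endosperm moves by 0.75, and every 14 DPA ratio of aleurone to starchy endosperm by -0.69. These shifts move the 14 DPA values of the members further in the direction of the rule. The 6 DPA ratio of aleurone to starchy endosperm moves by -0.197 with TMM, against the direction of the rule.

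The library with the highest level differed among the members. It was 9 DPA aleurone for 36, 6 DPA aleurone for 29, 14 DPA starchy endosperm for 25 and 9 DPA starchy endosperm for 4. The rule does not allow 6 DPA starchy endosperm or 14 DPA aleurone to be highest. No share over all sequences was taken for these counts, and the 9 DPA libraries were the shallowest. Of the 4, CK168909 and CA627498 had 0.533% and 0.714% unique reads, and TC429739 and TC391082 had 80.3% and 98.0%. The level reached in 14 DPA starchy endosperm was above that of 6 DPA aleurone in 38 members and below it in 56, with a median ratio of 0.781 (quartiles 0.387 and 1.49). The 14 DPA aleurone level was a median 0.0758 of the 6 DPA aleurone level. In 36 members the 6 DPA ratio was at least 16 in favour of aleurone, and in 39 the 14 DPA ratio was at least 16 in favour of starchy endosperm.

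The 9 DPA ratio went with the 6 DPA ratio more than with the 14 DPA ratio. Of the members 16-fold or more higher in aleurone at 6 DPA, 31 of 34 were 4-fold or more higher there at 9 DPA, while 22 of 55 with a smaller 6 DPA ratio were. Across the 89 members the log2 ratios of 6 and 9 DPA correlated at r = 0.44 (Spearman rho 0.47), and those of 14 and 9 DPA at r = -0.01 (rho 0.02). All points share the same libraries and their depth, and the rule limits the range of the 6 and 14 DPA ratios, so these are descriptions across sequences.

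Among the more abundant members, 11 had over 50 RPKM in both 6 DPA aleurone and 14 DPA starchy endosperm. In aleurone their levels ranged from 60.1 to 511 RPKM at 6 DPA, from 78.1 to 1493 RPKM at 9 DPA and from 0.074 to 12.8 RPKM at 14 DPA. In starchy endosperm they ranged from 0.895 to 54.1 RPKM, from 9.49 to 142 RPKM and from 54.1 to 406 RPKM at the same stages. All 11 were above 78 RPKM in 9 DPA aleurone, and in 6 of the 11 this was 4-fold or more above starchy endosperm.

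TC373390 (1014 bases) had the highest levels at both ends of the switch. In aleurone it had 511 RPKM at 6 DPA, 1493 RPKM at 9 DPA and 11.9 RPKM at 14 DPA, and in starchy endosperm 3.74, 105 and 406 RPKM. The aleurone was the higher tissue by 137-fold at 6 DPA and by 14.2-fold at 9 DPA (exact 95% counting interval at 9 DPA 12.9 to 15.7). At 14 DPA starchy endosperm was the higher tissue by 34.1-fold. Both tissues were high at 9 DPA, where 6888 aleurone and 438 starchy endosperm reads were counted, 3220 and 208 of them unique to this sequence.

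TC386518 (1746 bases) followed the same course at lower levels. It had 231, 628 and 5.98 RPKM in aleurone at 6, 9 and 14 DPA, and 2.13, 27.9 and 156 RPKM in starchy endosperm. At 9 DPA aleurone was 22.5-fold higher (19.5 to 26.05), and at 14 DPA starchy endosperm was 26.1-fold higher. Of its reads over all libraries 60.6% were unique.

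CK168909 (617 bases) was the single member with starchy endosperm 4-fold or more above aleurone at 9 DPA. It had 18.8, 11.8 and 2.48 RPKM in aleurone and 3.13, 148 and 12.3 RPKM in starchy endosperm at 6, 9 and 14 DPA, so its highest level was in 9 DPA starchy endosperm, 12.6-fold above 9 DPA aleurone (8.84 to 18.6). Of its reads only 0.533% were unique, none (0) of them from 9 or 14 DPA. Nearly all of its values thus rest on reads that also match other sequences, and the sources used here do not say how such reads were divided.

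**Figure D5:**
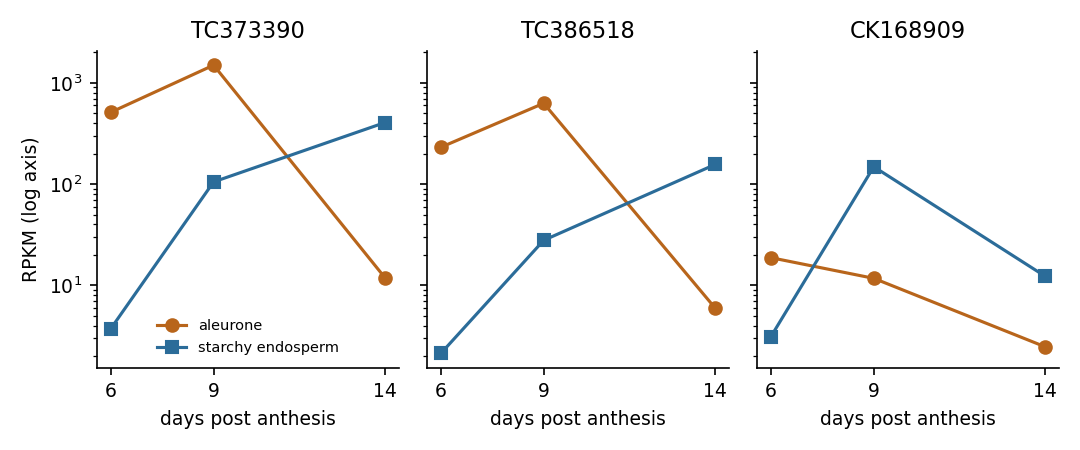
RPKM (log axis) of TC373390, TC386518 and CK168909 in aleurone (circles) and starchy endosperm (squares) at 6, 9 and 14 DPA, 1 library per point. In the first 2 the aleurone level is highest at 9 DPA, at 1493 and 628 RPKM, and CK168909 reaches 148 RPKM in 9 DPA starchy endosperm.

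In features outside the rule the members were close to a wider set. That set needed 5 RPKM in 6 DPA aleurone or 14 DPA starchy endosperm, where members needed it in both. Their median length was 757.5 bases, against 767 for the 41058 sequences with at least 5 RPKM in 6 DPA aleurone or 14 DPA starchy endosperm. Assembled TC sequences made up 73.4% of the members and 74.1% of those 41058. The median share of unique reads was 65.1% over the members and 64.3% over the 41058. Under 10% unique reads were found in 4 of the 94 members and in 3099 of the 41058. The 4-fold aleurone side at 9 DPA held 41 of 66 TC members and 12 of 23 members of the other kind.

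Membership depended on how the reads were scaled and counted. The rule chose 139 sequences with TMM, 132 with DESeq2 size factors, 128 on unique reads and 122 at equal depth, and these held 81, 74, 78 and 79 of the 94. All of these choices kept 63 of the 94. Of the 60 among them with enough 9 DPA reads, 41 had aleurone 4-fold or more above starchy endosperm at 9 DPA, and 0 the reverse.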

How the data were processed

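RNA was extracted from dissected tissue, amplified, and sequenced on a Genome Analyzer IIx after 15 cycles of PCR, per the labels' protocols. Per the file headers, the authors deposited for each sequence a count of total reads, a count of unique reads, its length and an RPKM value. RPKM recomputed here from total counts and lengths differed from the deposited RPKM by at most 5e-04. The transformed score that the 6 DPA files also carry, per the file headers, was not used. The sources used here name neither the aligner nor the sequence set. Library totals ranged from 4104682 to 37911327 reads. PCR copies were not told apart, so intervals and floors cover counting error only.

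The members were chosen on the deposited RPKM, and members and comparison sets were chosen with earlier results of these data known. With 1 library per group no test was made. Ratios used total counts scaled by library totals, with counts under 3 set at 3, where the higher 9 DPA library had at least 10 reads. Stage comparisons used the same 10 and 3 reads of the shallowest library, as reads scaled to the library total. Intervals are exact binomial (scipy 1.17.1). Alternatives were TMM (edgeR 4.0.16), DESeq2 1.42.0 size factors, unique reads, thinning to 4104682 reads and other thresholds. The rule for named sequences took, by the smaller of the 6 DPA aleurone and 14 DPA starchy endosperm RPKM, the first 2 at least 4-fold higher in each tissue at 9 DPA, of which starchy endosperm had 1.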

Additional observations from a re-analysis of the deposited data

Results flagged for a closer look

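The 94 sequences changed tissue preference between 6 and 14 DPA, with aleurone levels lower and starchy endosperm levels higher at the later stage in all 94. The rule that chose them fixes the change of preference. It also forces both changes of level where the 14 DPA starchy endosperm and 6 DPA aleurone levels differ by less than its ratio limit. In every other member it forces either the lower aleurone or the higher starchy endosperm level. The count of 94 is therefore largely set by the rule, and no share over all sequences was taken for it. With a single library in each group the difference between tissues was not tested.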

How the results depend on the processing

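The number of members (94) stayed within 1.5 times under TMM, DESeq2 size factors, unique reads, equal depth, no window, and a minimum of 20% unique reads. It was 155 and 35 with a ratio of 3 and 8, and 153 and 55 with a minimum of 2 and 10 RPKM. The share of members higher in aleurone at 9 DPA was 59.55% at 4-fold, 73.03% at 2-fold and 43.82% at 8-fold. Under the other 9 alternatives, which were scaling, unique reads, read minimum and ways of choosing members, it ran from 53.64% to 63.38%. The share higher in starchy endosperm was 1.124% at 4-fold and 7.865% at 2-fold. It was 0% among members with at least 20% unique reads, and at most 3.846% under the other 9 alternatives at 4-fold or 8-fold. The median log2 ratio of aleurone to starchy endosperm at 9 DPA ran from 2.101 to 3.221. Of the 9 DPA classes, the 2 small ones moved by more than 1.5 times, from 4 of 89 members each. Members with both tissues near their 14 DPA levels numbered 2 of 76 on unique reads. Those with both tissues low numbered 2 of 76 on unique reads and 7 of 94 with no read minimum. The members counted also differ between these settings. The alternatives that chose members anew or by their unique reads were added after seeing the data. No paired analysis was possible because each group had 1 library and no test was made. Depth limits the 9 DPA values most, where 5 members had under 10 reads in both libraries.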
